A study of Homo sapiens with 4 samples.

Results

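A set of 9 transcription factors that steer myeloid differentiation was followed in NOMO-1 cells with and without hairpins against ZFX. They were SPI1 (which encodes PU.1), CEBPA, CEBPB, CEBPD, CEBPE, CEBPG, IRF8, KLF4 and GFI1, and their probe sets were found by gene symbol. All 9 were found, each with 1 probe set of its own symbol only, out of 18417 genes named in this way. All 9 also passed the filter on dim genes, which left 12892 genes for testing. The platform annotation supplied the symbols.

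NOMO-1 is an established human line of acute myeloid leukaemia with monocytic features that carries a KMT2A fusion. All cells were transduced with lentivirus at a multiplicity of infection of 1, and RNA was collected 48 h after selection. The control group, with the label genotype ZFX wild type, held 1 array for a lentivirus with GFP (LEN-GFP) and 1 array for a scrambled hairpin (SCR). The ZFX knock-down group held 1 array for the hairpin SH1 and 1 array for the hairpin SH3. No construct was measured on more than 1 array, so the p-values describe how constructs and arrays vary together, and a change in 1 hairpin has no replicate of its own.

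Myeloid fate is set by a small circuit of factors. PU.1, an ETS factor, opens myeloid enhancers in both the granulocyte and the monocyte branch, and C/EBP alpha carries progenitors into the granulocyte-monocyte stage. IRF8 and, downstream of it, KLF4 favour monocytes. GFI1, a zinc finger repressor, favours granulocytes and opposes PU.1 and monocyte genes such as CSF1 and CSF1R. C/EBP epsilon acts late in granulocytes, and KMT2A-rearranged leukaemia cells are blocked before final maturation.

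The members whose hairpin arrays both lay on one side of both controls were GFI1 and KLF4, and the bases before their annotated starts are shown for that reason. The groups were apart in this way for 37.2% of all genes tested, so it does not single these members out. RefSeq windows (GRCh38.p14) of 250 bases before a start were found for 7 of the 9 members, and SPI1 and CEBPD were without one. In capitals are the letters AGGCC, the core of the ZFX recognition sequence, and AAATC, the core bound by GFI1, each searched on both strands.
GFI1 (minus strand, chr1:92486926-92487175): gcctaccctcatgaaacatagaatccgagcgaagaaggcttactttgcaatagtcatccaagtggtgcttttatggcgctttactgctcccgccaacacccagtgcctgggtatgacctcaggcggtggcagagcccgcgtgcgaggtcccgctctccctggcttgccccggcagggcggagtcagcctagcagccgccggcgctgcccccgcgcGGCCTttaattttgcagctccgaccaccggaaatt
KLF4 (minus strand, chr9:107489770-107490019): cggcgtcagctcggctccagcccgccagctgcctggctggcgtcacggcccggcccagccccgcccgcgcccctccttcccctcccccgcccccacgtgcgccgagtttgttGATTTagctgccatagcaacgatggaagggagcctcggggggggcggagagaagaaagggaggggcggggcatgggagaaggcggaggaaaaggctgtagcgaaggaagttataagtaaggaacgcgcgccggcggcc
The GFI1 window, the one before the outermost of 3 annotated starts, held 1 AGGCC match, 35 bases before the start, and no AAATC. The KLF4 window held 1 AAATC match, 138 bases before the start, and no AGGCC. Among all 35116 windows of this length 50.4% held AGGCC and 29.9% held AAATC, so each match is a common one. AGGCC was also found before at least 1 start of CEBPA, CEBPB, CEBPE, CEBPG and IRF8, and the longer AGGCCT, which contains it and was in 9.2% of windows, before no start of a member. The C/EBP letters TTGCNNCAA, present in 1.62% of windows, occurred once among the members, 100 bases before the inner of 2 starts of IRF8.
IRF8 (plus strand, chr16:85902905-85902934): gccagcacctTTGCTGCAAacctctgagtt
The ETS letters GAGGAA (23.6% of windows) were found before starts of GFI1, KLF4 and CEBPE, and the KLF letters CACCC (54.7%) before starts of GFI1, CEBPB, CEBPE and CEBPG. Such matches describe the letters only.

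ZFX itself was read first, as a check of the labels. Its log2 intensity was 10.65 and 10.66 in the controls (LEN-GFP, SCR) and 10.13 and 10.12 with the hairpins (SH1, SH3). Both hairpin arrays were lower than both controls and nearly equal to each other, with a difference of -0.53 (SE 0.10, 2 against 2 arrays, limma adjusted p = 0.797 over all genes). Median intensities over the 33297 probe sets ran from 184.8 to 189.8, while SH3 stood farther from the other arrays than any of them. The median distance of its genes from the gene's median over the 4 arrays was 0.104, against 0.0588 to 0.0597 for the other 3. The monocytic label was set against marker genes. All 10 monocyte markers on the array under a single symbol, of 12 listed, passed the filter on dim genes, as did 10 of 12 neutrophil granule genes. Of the other cell types, 4 of 7 dendritic cell, 4 of 7 erythroid, 3 of 6 megakaryocyte and 4 of 5 B cell markers passed. For natural killer cells it was 4 of 6, for fibroblasts 4 of 6 and for T cells 0 of 7. Passing the filter therefore does not by itself identify the line as monocytic. Summed intensities on LEN-GFP were 62706 for monocyte and 39403 for neutrophil granule markers. For the other types, with fewer markers each, they ran from 411 (T cell) to 2943 (dendritic cell).

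GFI1 showed the largest difference of the 9 members. Its log2 intensity (probe set 7917697) was 9.91 and 9.69 in the controls (LEN-GFP, SCR) and 9.44 and 8.50 with the hairpins (SH1, SH3). Both hairpin arrays were below both controls, SH1 by little more than the controls differed from each other and SH3 by far more. As deposited intensities the values were 960 and 825 in the controls against 694 on SH1 and 362 on SH3. The hairpins' mean was 56.4% of the control level, a difference of -0.83 (SE 0.33, 95% interval -1.67 to 0.01). This did not pass in limma (adjusted p = 0.797 over all genes), and 0.310% of the genes tested had a difference as low or lower. SH1 was at 78.0% of the control mean and SH3 at 40.7%. Set alone against both controls, GFI1 fell by 1.30 on SH3 (SE 0.15, limma adjusted p = 0.00126), and on SH1 its value of -0.36 (SE 0.14) did not pass (adjusted p = 0.436). These fits of 1 array take their spread from the control pair and a prior over all genes. With ordinary statistics, which use the 1 residual degree of freedom alone, GFI1 on SH3 was not called (adjusted p = 0.524).

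Neutrophil granule genes differed among themselves on SH3, the array where GFI1 was lowest. The summed intensity of the 12 granule markers was 39403 on LEN-GFP, 40755 on SCR and 36886 on SH1, against 24590 on SH3. Of the 10 that passed the filter on dim genes, 7 were lower on SH3 than the control mean (MPO, ELANE, PRTN3, AZU1, CTSG, MMP8 and DEFA4). Their differences ran from -2.80 for MMP8 to -0.32 for CTSG. CAMP (0.55), BPI (0.28) and LCN2 (0.09) were higher there. LCN2, at 6.63 to 6.80 over the 4 arrays, lay near 6.70, the mean log2 up to which genes were left out as dim. In bulk RNA, fewer cells with granule RNA and less of it per cell cannot be told apart. The part of the shift in granule genes in the GFI1 value was not tested. The summed monocyte markers differed little, with 62706 and 62828 in the controls and 64344 and 62988 on SH1 and SH3. This sum weighs bright markers most, and single markers differed more. CSF1R differed by 0.96 on SH1 and 0.21 on SH3, FCN1 by 0.44 and 0.56, and CYBB by 0.33 and -0.29. The median difference of the 10 monocyte markers was 0.09. The genes closest to GFI1 in their profile over the 4 arrays were IDE, the insulin-degrading enzyme, and PCCB, a subunit of propionyl-CoA carboxylase, at Euclidean distances of 0.111 and 0.114 between centred log2 values. With 44 genes within a distance of 0.3, this likeness over 4 arrays was shared widely. GFI1 was the only member whose 4 arrays spanned at least 0.5, the range set for this comparison. The other 8 members spanned less, as 79.4% of all genes tested did.

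**Figure D1:**
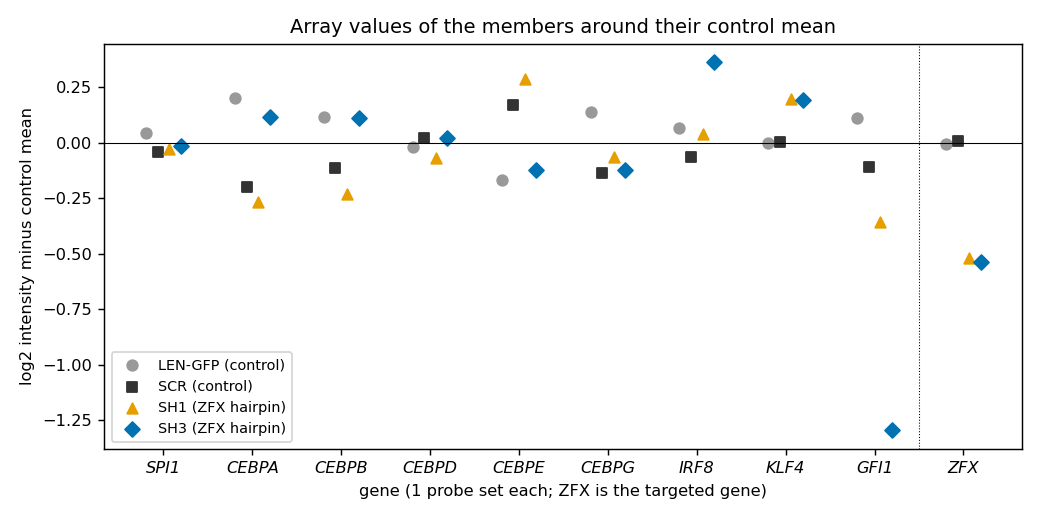
Log2 intensity of each member, and of ZFX at the right, on the 4 arrays, minus the mean of the 2 controls of that gene (1 point per array). GFI1 lies lowest on SH3, at -1.30, KLF4 is about 0.19 to 0.20 above its controls on both hairpin arrays, and for CEBPA, CEBPB and CEBPE the points of SCR and SH1 lie on one side and those of LEN-GFP and SH3 on the other.

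KLF4, a zinc finger factor that promotes monocyte fate, was higher on both hairpin arrays by a small and even amount. Its log2 intensity (probe set 8163002) was 9.43 for LEN-GFP and 9.44 for SCR, against 9.63 with either hairpin. The groups did not overlap, and the arrays within each group were closer together than the groups. The difference was 0.19 (SE 0.11, 95% interval -0.09 to 0.48), which is 114% of the control level, and it did not pass in limma (adjusted p = 0.797). A difference as high or higher was found for 12.6% of all genes.

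IRF8, the interferon regulatory factor of monocytes and dendritic cells, was highest on SH3. Its log2 intensity (probe set 7997712) was 11.90 and 11.77 in the controls (LEN-GFP, SCR) and 11.87 and 12.19 with the hairpins (SH1, SH3). SH1 lay between the controls, so the groups overlapped. The difference of 0.20 (SE 0.14, 95% interval -0.16 to 0.55) did not pass in limma (adjusted p = 0.817). SH3 alone rose by 0.36 (SE 0.10) over both controls, to 128% of their mean (limma adjusted p = 0.0446), and SH1 was at 103% (adjusted p = 0.981). The SH3 call lay near the threshold, and it was lost when dim genes were kept (adjusted p = 0.0710), with arrays centred on their median (0.0760), without the intensity trend (0.121) and with ordinary statistics (0.581).

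SPI1 was among the steadiest members. Its log2 intensity (probe set 7947861) was 11.32 and 11.23 in the controls (LEN-GFP, SCR) and 11.25 and 11.26 with the hairpins (SH1, SH3). Both hairpin values lay between those of the controls. The difference was -0.02 (SE 0.10, limma adjusted p = 0.976), with a 95% interval from -0.27 to 0.23.

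The 5 C/EBP genes encode leucine zipper factors that bind the same sequence as pairs with each other. In none of them were the hairpin arrays apart from the controls, and their group differences ran from -0.09 for CEBPG to 0.08 for CEBPE. CEBPA, the factor of the granulocyte-monocyte stage, had log2 intensities (probe set 8036004) of 10.24 and 9.84 in the controls (LEN-GFP, SCR) and 9.77 and 10.15 with the hairpins (SH1, SH3). The controls differed by -0.40 (SCR minus LEN-GFP) and the hairpins by 0.38 (SH3 minus SH1), both larger than the group difference of -0.08 (SE 0.21, limma adjusted p = 0.955). CEBPB, which acts in macrophages and in emergency granulopoiesis, had the same order of arrays. Its values (probe set 8063386) were 10.71 and 10.48 in the controls (LEN-GFP, SCR) and 10.37 and 10.71 with the hairpins (SH1, SH3), a group difference of -0.06 (SE 0.17, adjusted p = 0.956). SH1 was at 83.1% of the control mean for CEBPA and at 85.2% for CEBPB, while SH3 was at 108% for both.

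CEBPE, the late granulocyte factor, ran the other way. Its log2 intensity (probe set 7977928) was 8.26 and 8.60 in the controls (LEN-GFP, SCR) and 8.72 and 8.31 with the hairpins (SH1, SH3). It was therefore highest on SH1, where CEBPA and CEBPB were lowest. The difference between the groups was 0.08 (SE 0.20, limma adjusted p = 0.946), with 122% of the control mean on SH1 and 91.9% on SH3. None of the 3 genes passed for SH1 alone (limma adjusted p = 0.668 to 0.723) or for SH3 alone (0.682 to 0.754). The controls alone differed by -0.40, -0.23 and 0.33 (SCR minus LEN-GFP) on CEBPA, CEBPB and CEBPE.

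CEBPD and CEBPG varied less. CEBPD, a factor of the acute phase and of macrophage activation, had values (probe set 8150592) of 11.68 and 11.72 in the controls (LEN-GFP, SCR) and 11.63 and 11.72 with the hairpins (SH1, SH3). All 4 arrays were within 0.09 of each other, and the difference was -0.02 (SE 0.09, limma adjusted p = 0.967). CEBPG, which lacks an activation domain of its own and pairs with other leucine zipper factors such as ATF4, had values (probe set 8027566) of 10.75 and 10.48 in the controls (LEN-GFP, SCR) and 10.55 and 10.49 with the hairpins (SH1, SH3). LEN-GFP was the array apart, with a group difference of -0.09 (SE 0.13, adjusted p = 0.902) that turned to 0.04 with LEN-GFP left out.

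**Figure D2:**
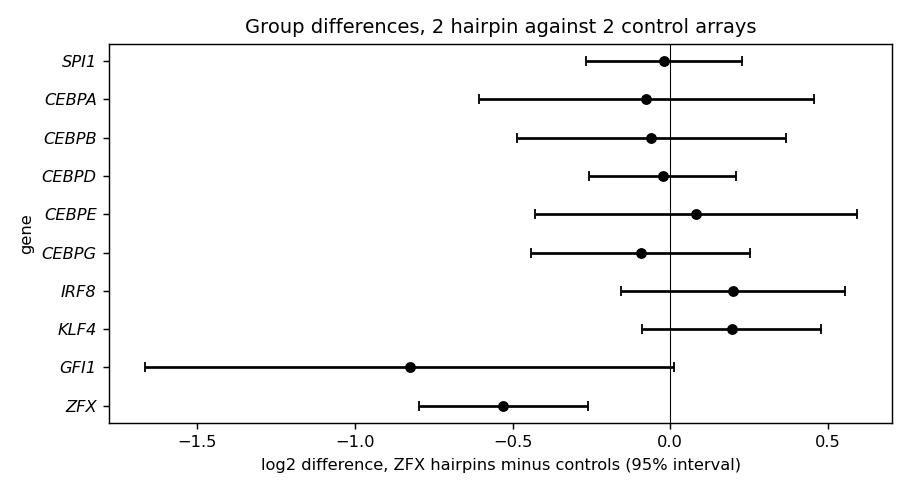
Log2 difference of the 2 ZFX hairpin arrays minus the 2 control arrays for each member and ZFX, with limma's 95% interval. The intervals of all 9 members include 0, that of GFI1 only just (-1.67 to 0.01), and ZFX lies between -0.80 and -0.26.

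Across the set, 0 of the 9 members passed an adjusted p of 0.05 in limma, as did 0 of all 12892 genes (0%), with or without moderation of the variances. At an unadjusted p under 0.05 there were 0 members, against 779 genes (6.04% of those tested). The groups did not overlap for 2 of the 9, GFI1 below (19.0% of all genes) and KLF4 above (18.2%), where 37.2% of all genes were apart in one direction or the other. Of the members 6 were lower (50.8% of all genes were). Their median difference was -0.02, and -0.0029 over all genes. For 6 of the 9 members the group difference was smaller than that between the 2 controls, compared with 48.7% of all genes. A difference of -0.5 or lower was found for 1 member, GFI1, and for 2.33% of all genes, and one of 0.5 or higher for 0 members and 1.97% of all genes. With 2 arrays against 2, an exact permutation test of a single gene cannot give a two-sided p below 0.333.

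For SH3 alone against the controls, GFI1 fell and IRF8 rose among the 9 members (6.90% of all genes fell and 6.27% rose). For SH1 alone 0 of the 9 were called, where 0.419% of all genes were. Both comparisons use the same control arrays, and these calls rest on the moderated spread, since ordinary statistics called 5 of all genes on SH3 (1698 in limma) and 5 on SH1 (54 in limma). Differences from the control mean for SH1 and SH3 were -0.03 and -0.01 for SPI1, -0.27 and 0.12 for CEBPA, and -0.23 and 0.11 for CEBPB. They were -0.07 and 0.02 for CEBPD, 0.29 and -0.12 for CEBPE, and -0.07 and -0.12 for CEBPG. IRF8 had 0.04 and 0.36, KLF4 0.20 and 0.19, and GFI1 -0.36 and -1.30. KLF4 was the member on which the hairpins came closest to each other among those that stood apart from the controls.

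**Figure D3:**
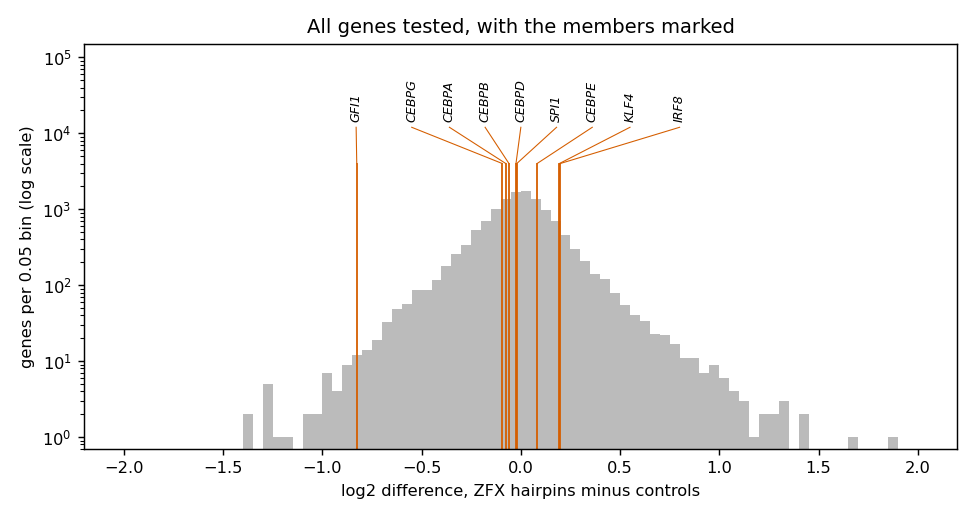
Number of genes by log2 difference (hairpins minus controls) in bins of 0.05, on a log scale, for the 12892 genes tested, with a line at each member. GFI1, at -0.83, lies in the lower tail with 0.310% of genes at or below it, and the other 8 members lie between -0.09 and 0.20.

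Genes that these factors are known to control, and their partners, were described from lists. The lists were chosen with earlier results of these data known, so they are not an independent readout of the factors. They do not separate genes that a factor raises from genes that it lowers. No gene of any list passed in limma for the hairpins together. Beside the counts of each list, both hairpin arrays lay above both controls for 18.2% of all genes tested and below for 19.0%. Of 27 PU.1 targets tested (32 listed), 19 were higher and 8 lower, with a median of 0.08, and 6 lay above and 2 below both controls. CSF1R, through which macrophage colony-stimulating factor signals, was 9.04 and 8.89 in the controls and 9.92 on SH1 and 9.17 on SH3, so it was high mainly on SH1. Its difference was 0.58 (SE 0.27), and on SH1 alone it rose by 0.96 (limma adjusted p = 0.0334). FGR, a SRC family kinase of myeloid cells, was 10.71 and 10.59 in the controls and 11.13 and 11.34 on SH1 and SH3. Both hairpins were above both controls, by 0.58 on average (SE 0.12). IL1B, the cytokine interleukin-1 beta, was high on SH3 alone, at 9.98 against 7.93 to 8.14 on the other arrays. ELANE, also on this list, was lower (-0.82, SE 0.44). On SH3, ELANE and MPO differed from the control mean by -1.50 and -1.02, and FGR and IL1B by 0.69 and 1.94.

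The C/EBP targets differed in both directions. Of 27 tested (32 listed), 15 were lower and 12 higher, with a median of -0.04. On SH3 the differences from the control mean ran from -2.80 for MMP8 to 1.49 for PTGS2. The 7 granule genes named above were lower there. CAMP, itself a granule gene, FCN1, CHI3L1, TREM1 and PTGS2 were among the genes that were higher. TREM1, at 6.78 to 6.95 on the other arrays, lay near 6.70, the mean log2 up to which genes were left out as dim. Other granule genes of the list, BPI (0.28), LCN2 (0.09) and PGLYRP1 (-0.05), differed less on SH3. ELANE, neutrophil elastase and a gene that GFI1 binds, was 12.71 and 12.72 in the controls, 12.57 on SH1 and 11.22 on SH3. Its mean difference was -0.82 (SE 0.44), and it fell by 1.50 on SH3 alone (limma adjusted p = 1.85e-04). DEFA4, a defensin, was 10.06 and 10.23 in the controls, 9.82 on SH1 and 8.48 on SH3 (-0.99, SE 0.44). MMP8, neutrophil collagenase, already differed between the controls, at 10.29 on LEN-GFP and 11.84 on SCR, with 11.53 on SH1 and 8.27 on SH3 (-1.16, SE 1.15). CHI3L1, a chitinase-like protein of macrophages, was 11.99 and 11.92 in the controls and 12.76 and 13.29 on SH1 and SH3 (1.07, SE 0.18), and it was called on each hairpin alone (adjusted p = 0.0122 for SH1 and 1.85e-04 for SH3).

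GFI1 acts as a repressor, and its targets were read as a list of their own. Of 11 tested (16 listed), 6 were higher and 5 lower, with a median of 0.08, and 5 lay above and 2 below both controls. GFI1B, the close relative of GFI1 in the erythroid and megakaryocyte lineages, was 8.29 and 8.46 in the controls and 8.95 on SH1 and 8.68 on SH3. It was higher on both hairpins (0.44, SE 0.15), by 0.58 on SH1 and 0.31 on SH3. A relation of these values to GFI1 was not tested. E2F5, a cell cycle factor, was 6.89 and 7.22 in the controls, 6.83 on SH1 and 6.21 on SH3 (-0.54, SE 0.23). Its SH3 value lies below 6.70, the mean log2 up to which genes were left out as dim. CSF1R, also on this list, had its highest difference (0.58), with 0.96 above the control mean on SH1 and 0.21 on SH3. On SH3, ELANE and E2F5 differed from the control mean by -1.50 and -0.85.

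Among the targets of the monocyte factor IRF8 more genes were higher than lower. Of 13 IRF8 targets tested (16 listed), 12 were higher, with a median of 0.19, and 8 lay above and 1 below both controls. Over all genes tested, 18.2% lay above and 19.0% below both controls, and 50.8% were lower. Their median was 0.21 on SH1 and 0.18 on SH3, while IRF8 itself was higher by 0.04 and 0.36. A relation of the targets to the IRF8 value was not tested. PRDM1, a transcriptional repressor, was 7.82 and 7.62 in the controls, 7.93 on SH1 and 9.62 on SH3 (1.05, SE 0.55). CTSS, the protease cathepsin S, was high on SH1 instead, at 10.40 against 9.78 to 9.89 on the other arrays (0.34, SE 0.19). TLR9, a receptor for DNA, was 8.35 on both controls, 8.46 on SH1 and 9.14 on SH3 (0.45, SE 0.24). PTPN13, a phosphatase, was the only gene of the list with a lower group mean, and it was lower on both hairpins (-0.64, SE 0.32). Its values were 11.56 and 11.81 in the controls and 11.51 and 10.58 on SH1 and SH3. CYBB, also on this list, differed by 0.33 on SH1 and -0.29 on SH3, with a group difference of 0.02.

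Few KLF4 targets could be read. Of 6 tested (8 listed), 5 were higher and 1 lower, with a median of 0.08. THBD, thrombomodulin, was 8.34 and 8.32 in the controls, 8.36 on SH1 and 8.87 on SH3 (0.29, SE 0.19). KLF2, CD14 and KLF5 differed by 0.08 each (SE 0.11, 0.14 and 0.11). CD14, the monocyte coreceptor for endotoxin, was higher on SH3 (0.26) and lower on SH1 (-0.09), neither of which passed.

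**Figure D4:**
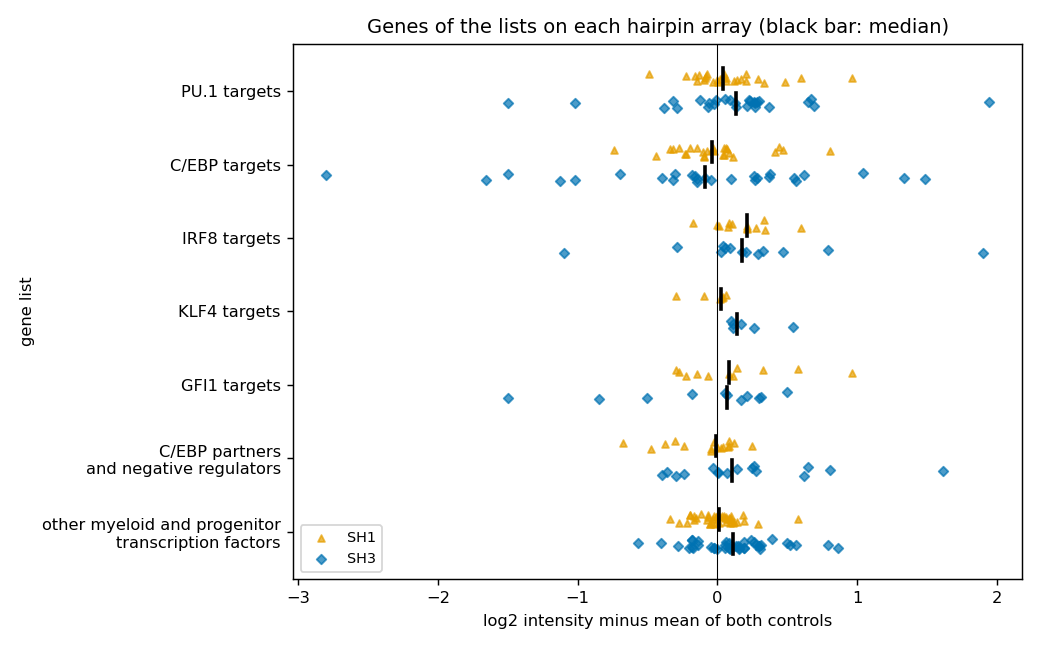
Log2 intensity minus the mean of both controls for each tested gene of the 7 lists, on SH1 (triangles) and SH3 (diamonds), with the median of each list as a black bar. The SH3 points are spread wider, from MMP8 at -2.80 to IL1B at 1.94, and the medians lie between -0.09 and 0.21.

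Partners and negative regulators of C/EBP factors did not move as a block. Of 16 tested (18 listed), 9 were higher and 7 lower, with a median of 0.03, and 2 lay above and 2 below both controls. TRIB2, a pseudokinase that leads C/EBP alpha protein to degradation, was 6.98 and 6.91 in the controls and 6.97 on SH1, and 8.56 on SH3. Its control and SH1 values lay near 6.70, the mean log2 up to which genes were left out as dim. On SH3 TRIB2 was higher than the control mean by 1.61, which rests on 1 array. CEBPA mRNA on that array was within its control range. TRIB3 (-0.52, SE 0.20) and DDIT3 (-0.39, SE 0.19), which encodes the C/EBP inhibitor CHOP, were lower on both hairpins. For both, SCR was also lower than LEN-GFP, by 0.42 and 0.47. JUN, a leucine zipper partner, was high on SH3 alone, at 8.11 against 7.22 to 7.40.

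Of 41 other myeloid and progenitor factors tested (48 listed), 27 were higher and 14 lower, with a median of 0.06, and 11 lay above and 4 below both controls. Their median difference from the control mean was 0.01 on SH1 and 0.11 on SH3. KLF6, a zinc finger factor of activated macrophages, was 9.29 and 9.23 in the controls, 9.32 on SH1 and 10.05 on SH3 (0.43, SE 0.26). BACH1, a repressor of haem oxygenase and other antioxidant genes, was 10.14 and 10.20 in the controls and 10.35 and 10.69 on SH1 and SH3 (0.35, SE 0.15). BCL6, a repressor, was higher on SH3 (0.86) and not on SH1 (-0.19). Beside these counts, both hairpin arrays lay above both controls for 18.2% of all genes and below for 19.0%.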

How the data were processed

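RNA of 4 NOMO-1 cultures was extracted with Trizol, and 200 ng was labelled with biotin (Ambion WT kit), per the labels' protocols. The authors deposited 1 linear intensity per probe set and array for 33297 probe sets. Affymetrix Expression Console 1.1 and RMA are named in the submitters' processing notes, with no account here of how the values became linear. No detection call was used, RMA compresses differences of dim genes, and it hides any shift in RNA content per cell.

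The log2 of each intensity was taken without an offset. Probe sets with 1 symbol (19460; 1754 had several, 12083 none here) were named through the platform annotation, of which 19429 matched a RefSeq gene (GRCh38.p14), and the brightest stood for its gene. The dimmest 30% of genes by mean log2 (5525 genes, up to 6.70) were left out. limma 3.58.1 in R 4.3.3 (lmFit, eBayes with an intensity trend) compared hairpins with controls, two-sided, with Benjamini-Hochberg adjustment over 12892 genes at 0.05, with 2 residual degrees of freedom and a prior of 2.95. Each hairpin was also fitted alone against both controls. The steps were tested on simulated data.

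Named were the members, ZFX, up to 4 genes per list with the largest absolute difference, and, for members spanning 0.5 or more over the arrays, the 2 protein-coding genes nearest in profile. Some genes of a list called on SH3 alone, and BPI, LCN2 and PGLYRP1, are named beyond this rule, after their values were seen. Other genes of the lists called on SH3 are not named. Members and lists were chosen with earlier results of these data known. Alternatives changed the filter, probe set, normalization, offset and variance model, and left out each array. No array shares a replicate number in the labels.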

Additional observations from a re-analysis of the deposited data

How the results depend on the processing

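No paired analysis was possible because the labels give no replicate numbers that link control and hairpin arrays. Under the 8 alternatives that kept all 4 arrays, each member kept the direction of its difference, 2 members had groups that did not overlap, and 0 genes passed in limma. With each array left out in turn, the count of genes called ranged from 0 to 1698, the members called from 0 to 2, and the members whose groups did not overlap from 3 to 7. Calls appeared without SH1 (1698 genes, ZFX among them with an adjusted p of 0.0181, and 2 members) and without SH3 (54 genes, 0 members), and 0 without either control. ZFX ranged from -0.54 to -0.52, GFI1 from -1.30 to -0.36, KLF4 from 0.19 to 0.20 and IRF8 from 0.04 to 0.36. The other members changed sign: SPI1 ranged from -0.064 to 0.023, CEBPA from -0.28 to 0.12, CEBPB from -0.23 to 0.11, CEBPD from -0.068 to 0.019, CEBPE from -0.12 to 0.29 and CEBPG from -0.23 to 0.043. Among the other genes named, IL1B (-0.085 to 1.94), MMP8 (-2.80 to 0.47), CD14 (-0.093 to 0.26) and BCL6 (-0.19 to 0.86) changed sign, each without SH3. For SH1 alone the 54 genes became 19 with no filter on dim genes, 24 with arrays centred on their median, 147 with quantile normalization, 4 without the intensity trend and 5 with ordinary statistics. For SH3 alone the 1698 genes became 5 with ordinary statistics and 0 members were then called, while 1 member, GFI1, was called with no filter, centred arrays or no trend. The cause of these shifts was not tested. With 2 arrays a group and no repeat of a construct, the number of arrays limits the precision.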
